A study of Mus musculus with 8 samples.

Results

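The SOX genes encode transcription factors that bind DNA through a high-mobility-group (HMG) box, and 10 of them that are used in neural precursors were followed here across 6 RNA-seq libraries. They were found by their symbols among the 23997 symbols of the deposited tables, and all 10 were present once and passed the filter of a mean of at least 1 FPKM (fragments per kilobase of transcript per mapped library size). They fall into 5 subgroups: B1 (Sox1, Sox2 and Sox3), B2 (Sox21), C (Sox4 and Sox11), D (Sox5 and Sox6) and E (Sox8 and Sox9). The cells were a primary adherent culture of neural stem/precursor cells of ICR mouse fetuses at E11.5, taken from the telencephalon (the future forebrain), kept in 10 ng/mL basic fibroblast growth factor (the developmental stage field gives E11). Of the RNA-seq libraries, 3 came from control cells and 3 from cells transduced with Nfia, a transcription factor of the nuclear factor I family linked to the start of glia formation, 3 days after transduction. No source used here gives the vector, its promoter, what the control cells received or the share of cells that took up Nfia. Nothing in the labels ties the libraries to separate cultures. The p-values thus weigh each group difference only against the spread among these libraries, which may be technical. A Flag ChIP and an IgG ChIP sample of the series were not analysed here.

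In the embryonic brain the SOX subgroups take turns. The B1 factors hold cells in the precursor state, often together with POU factors, and the B2 factor Sox21 opposes them. The C factors act in young neurons and in the precursors about to form them, where they switch on neuronal genes. The D factors have no activation domain of their own and modulate other SOX factors, and the E factors serve in glia: Sox9 in the switch from neuron to glia production and Sox8, with Sox9 and Sox10, in the oligodendrocyte lineage.

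The libraries held totals of 474010 to 511700 FPKM, and the steps between low values put their depth at 0.76 to 1.11 of the first control library; absolute depth is unknown and no counting interval is given. Nfia itself held 19.8, 23.9 and 22.2 FPKM in control and 69.0, 85.6 and 103.5 FPKM in transduced libraries, means of 22.0 ± 2.06 and 86.1 ± 17.2 FPKM (SD, n = 3 per group), without overlap; endogenous and introduced transcripts cannot be told apart. All 8 precursor markers on a list, among them Nes, Vim, Fabp7, Hes5, Pax6, Prom1 and Slc1a3, were above the filter. All 6 neuron markers were called lower in Nfia cells (limma adjusted p under 0.05), read against 15.1% of all genes tested. Their summed level was 1323 to 1436 FPKM in control and 769.7 to 800.0 FPKM in Nfia libraries. These 6 genes are also on the list of SOXC targets and neuron genes below. None of the 4 microglia, 4 neural crest and 4 erythroid markers reached the filter. Of 4 endothelium markers only Cldn5 did. It was low and was called lower, at 2.09 ± 0.339 FPKM in control and 1.02 ± 0.158 FPKM with Nfia (limma adjusted p = 0.0121). All 5 mesenchyme and meninges markers passed the filter, and none was called. In control 1 and Nfia 1 the 5 mesenchyme and meninges markers summed to 4.40 and 3.27 FPKM, against 9.58 to 10.9 FPKM in the other libraries.

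With Nfia, Sox8 rose and Sox1, Sox4, Sox11 and Sox9 fell, while Sox2, Sox3, Sox21, Sox5 and Sox6 did not pass the test. These are 5 of 10 members, 1 higher and 4 lower, at an adjusted p under 0.05 from limma, read against 31.3% of the 12537 genes tested (16.1% higher and 15.1% lower). Rescaling each library to TPM, which also raised every value against the fixed pseudocount and filter so that 13458 genes were tested, gave 1534 genes higher and 2091 lower, against 2020 and 1898 as deposited. With the values as deposited, the median difference of the 10 members was -0.09 on the log2(FPKM + 1) scale, against 0.01 over all genes tested. Members of a subgroup did not always move alike: in B1 Sox1 fell while Sox2 and Sox3 were not called, and in E Sox8 rose while Sox9 fell. The libraries of the groups did not overlap in 7 members, 2 of them higher and 5 lower, read against 47.7% of genes tested (24.7% higher and 22.9% lower). All log2 differences subtract control from Nfia after adding 1 FPKM, so changes of low genes are understated. Because the RNA is from bulk cultures, fewer cells of a type and less RNA per cell cannot be told apart.

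**Figure D1:**
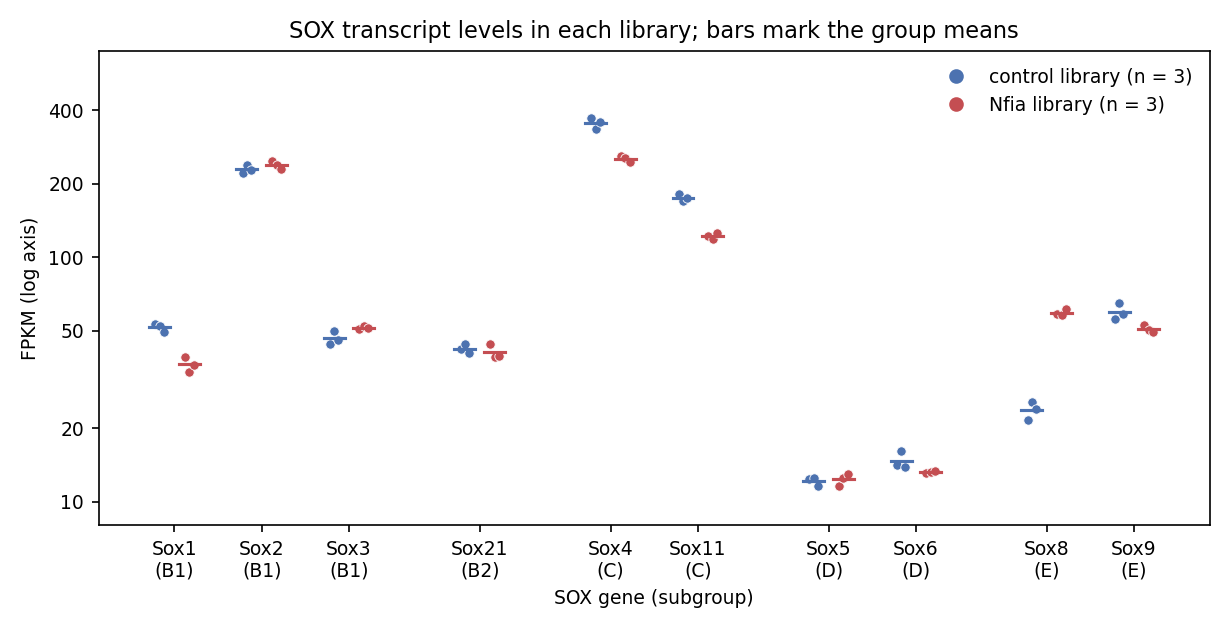
FPKM of the 10 SOX genes on a log axis, ordered by subgroup, with 1 point per library (control blue, Nfia red) and bars at the group means. The Sox8 points move from 21.6 to 25.7 FPKM in control up to 57.9 to 61.4 FPKM with Nfia, past Sox9, while Sox1, Sox4 and Sox11 drop and Sox2 overlaps between the groups.

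**Figure D2:**
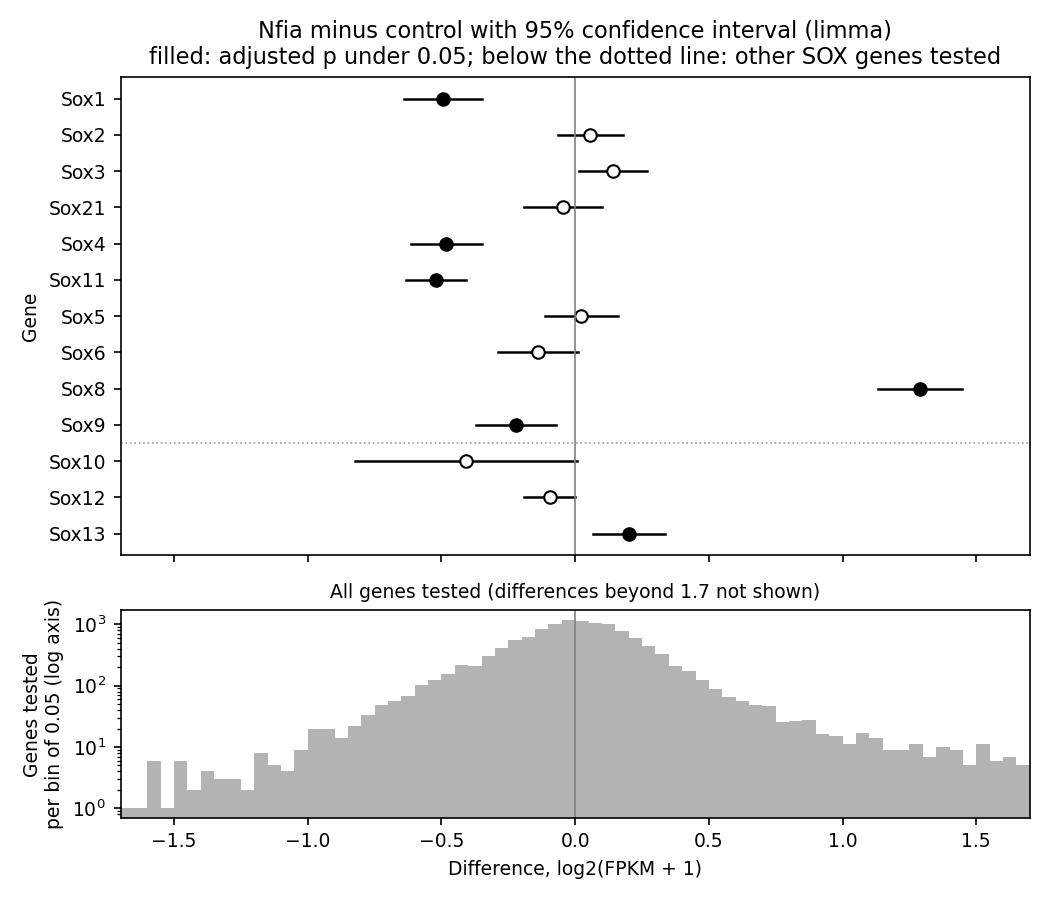
Upper panel, difference between Nfia and control on the log2(FPKM + 1) scale with its 95% confidence interval for the 10 SOX genes and, below the dotted line, the 3 other SOX genes tested; filled points passed an adjusted p under 0.05. Lower panel, the number of all genes tested per bin of the same difference, on a log axis: Sox8 at 1.29 lies in the upper tail, and Sox1, Sox4 and Sox11 lie near -0.50 in the lower part.

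The order of levels in control cells ran from Sox4, the highest at 354 FPKM, through Sox2 at 229 FPKM and Sox11 at 176 FPKM down to Sox6 at 14.7 FPKM and Sox5 at 12.1 FPKM. Sox9 at 59.8 FPKM, Sox1 at 51.7 FPKM, Sox3 at 46.7 FPKM, Sox21 at 42.3 FPKM and Sox8 at 23.7 FPKM lay between them. The libraries of neighbours in this order overlapped only for Sox1 with Sox3 and for Sox3 with Sox21. With Nfia, Sox8 moved from rank 8 to rank 4 and Sox1 from rank 5 to rank 8, and Sox4 and Sox2 came to overlap at 253 and 238 FPKM. Sox3 overlapped Sox9, and Sox21 overlapped Sox1, in the Nfia libraries. FPKM is scaled by transcript length, so these levels can be set side by side between genes.

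Sox2, a core factor of neural stem cells, was among the most abundant of these transcripts and was not called changed. Its control libraries held 222, 238 and 228 FPKM and its Nfia libraries 247, 238 and 229.6 FPKM. The groups overlapped, and the difference of 0.06 had a 95% confidence interval of -0.07 to 0.18 (adjusted p = 0.437), which spans small changes in either direction. Sox1, the B1 factor tied most closely to neural identity, held 53.4, 52.3 and 49.6 FPKM in control and 39.3, 34.0 and 36.2 FPKM in Nfia libraries. Every Nfia library lay below every control library, and the mean fell by 29.5% (log2 difference -0.49, SE 0.06, adjusted p = 0.00195). Sox3, the X-linked B1 gene, held 44.1, 49.99 and 45.9 FPKM in control and 50.7, 52.4 and 51.4 FPKM with Nfia. The Sox3 groups did not overlap, but its highest control and lowest Nfia library were close, and it did not pass (log2 difference 0.14, interval 0.01 to 0.27, adjusted p = 0.0884). Without control 2, its highest control library, Sox3 passed (adjusted p = 0.0307), and it also passed with library weights (adjusted p = 0.0409).

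The B1 transcripts summed to 328 ± 11.1 FPKM in control and 326 ± 10.2 FPKM in Nfia libraries (SD, n = 3), so their total moved by less than its spread while its makeup moved. Sox1 was 15.8% ± 0.792 of the B1 sum in control and 11.2% ± 0.620 with Nfia. The Sox2 share was 69.9% ± 0.510 and 73.0% ± 0.564, and the Sox3 share 14.2% ± 0.436 and 15.8% ± 0.666. Within libraries, the ratio of Sox1 to Sox2 was 0.226 ± 0.0128 in control and 0.153 ± 0.00897 with Nfia, without overlap. The ratio of Sox1 to Sox3 was 1.11 ± 0.0862 and 0.709 ± 0.0633, also without overlap, so that Sox1 exceeded Sox3 in all 3 control libraries and lay below it in all 3 Nfia libraries. For both ratios the exact permutation test gave p = 0.1 (two-sided), the smallest that 3 against 3 libraries allow, and 0.175 adjusted over the 7 pairs of related SOX genes compared. Sox3 to Sox2 overlapped between the groups (exact permutation p = 0.2, adjusted 0.233).

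Sox21, the B2 factor that counters B1 activity and promotes neuron formation, held 42.1, 44.2 and 40.6 FPKM in control and 44.4, 39.2 and 39.4 FPKM with Nfia. The first Nfia library was the highest of all 6 and the groups overlapped (log2 difference -0.05, interval -0.19 to 0.10, adjusted p = 0.612). Its ratio to Sox2 was 0.190, 0.186 and 0.178 in control and 0.179, 0.165 and 0.172 with Nfia and overlapped between the groups (exact permutation p = 0.2, adjusted 0.233).

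The SOXC genes were the most abundant subgroup and fell together. Sox4 held 370.0, 334 and 358 FPKM in control and 259, 254 and 246 FPKM in Nfia libraries, and its mean fell by 28.5% (log2 difference -0.48, SE 0.06, adjusted p = 0.00155). Sox11, its close relative, held 182, 169.6 and 175 FPKM in control and 122, 118 and 126 FPKM with Nfia, and its mean fell by 30.5% (log2 difference -0.52, SE 0.05, adjusted p = 0.000626). In both genes the lowest control library was well above the highest Nfia library. Their sum went from 530 ± 24.3 to 375 ± 5.38 FPKM, and their share of the summed level of all 10 members from 52.4% ± 2.19 to 42.7% ± 0.276 (SD, n = 3). The ratio of Sox4 to Sox11 was 2.02 ± 0.0400 in control and 2.08 ± 0.106 with Nfia and overlapped between the groups (difference of the log2 ratio 0.04, exact permutation p = 0.5, adjusted 0.5).

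Neuron genes moved in the same direction as the SOXC genes. Of 14 SOXC targets and neuron genes on a list, 11 were lower and 1 higher, read against 15.1% and 16.1% of all genes tested. The median log2 difference was -0.55. The list holds all 6 neuron markers given above, so these counts are not separate observations. Tubb3, the neuronal beta-tubulin and a known SOXC target, fell from 609 ± 38.8 to 306 ± 14.7 FPKM, and Dcx, a microtubule-associated protein of migrating neurons, fell by 0.71 on the log2 scale. Elavl4 and Elavl3, which encode RNA-binding proteins of neurons, fell by 0.77 and 0.55. Tead2, a Hippo pathway factor and another known SOXC target, was chosen for mention after its values were seen: it was 155 ± 5.86 and 146 ± 6.43 FPKM and did not pass (adjusted p = 0.238), except under quantile normalization (adjusted p = 0.0369). Set against Tubb3 in the same library, Sox4 was 0.582 ± 0.0367 in control and 0.826 ± 0.0174 with Nfia, and Sox11 was 0.289 ± 0.0142 and 0.399 ± 0.0290. Thus Tubb3 fell by a larger factor than either SOXC gene in these libraries. Set against Dcx, Sox4 was 2.70 ± 0.0407 and 3.18 ± 0.189 and Sox11 1.34 ± 0.0454 and 1.53 ± 0.0364. The part of neuron content in the SOXC values was not tested.

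The SOXD genes, whose products dimerise through a coiled coil, were the lowest of the subgroups and did not pass. Sox5 held 12.4, 12.4 and 11.6 FPKM in control and 11.6, 12.5 and 13.0 FPKM with Nfia, and the groups overlapped (log2 difference 0.02, interval -0.11 to 0.16, adjusted p = 0.784). Sox6 held 14.2, 16.1 and 13.9 FPKM in control and 13.1, 13.2 and 13.4 FPKM with Nfia. All Sox6 values with Nfia lay just below the lowest control value, and the difference did not pass (log2 difference -0.14, interval -0.29 to 0.01, adjusted p = 0.135). The ratio of Sox5 to Sox6 was 0.829 ± 0.0513 in control and 0.934 ± 0.0469 with Nfia, without overlap (exact permutation p = 0.1, adjusted 0.175). The highest control ratio, 0.873, lay close to the lowest Nfia ratio, 0.882. Under quantile normalization the exact permutation p was 0.2 (adjusted 0.28).

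Of the SOXE genes, Sox8 rose past Sox9. Sox8 held 21.6, 25.7 and 23.9 FPKM in control and 58.7, 57.9 and 61.4 FPKM in Nfia libraries, a 2.50-fold rise (log2 difference 1.29, SE 0.07, adjusted p = 0.000151). It was the only member past a log2 difference of 1 in either direction, where 0.909% of genes tested were called higher by at least that much, and it ranked 159 from the top of the 12537 differences. Sox9 held 56.0, 65.0 and 58.3 FPKM in control and 53.0, 50.6 and 49.5 FPKM with Nfia, and its mean fell by 14.7% (log2 difference -0.22, SE 0.06, adjusted p = 0.0362). The Sox9 groups did not overlap, but the call did not survive leaving out control 2, control 3 or a single Nfia library (adjusted p = 0.0513 to 0.103). It also ended when low genes were left in (adjusted p = 0.0525) and with no variance trend (adjusted p = 0.052).

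Sox8 was 28.4% ± 0.623 of the summed Sox8 and Sox9 level in control and 53.8% ± 1.43 with Nfia (SD, n = 3). Its ratio to Sox9 was 0.385, 0.395 and 0.410 in the control libraries and 1.11, 1.14 and 1.24 in the Nfia libraries, so Sox9 was the higher gene in every control library and Sox8 in every Nfia library. The log2 ratio moved by 1.51, the largest of the 7 pairs in size (exact permutation p = 0.1, the smallest possible, adjusted 0.175). The sum of both genes went from 83.5 ± 6.63 to 110 ± 1.72 FPKM. Sox10, the third SOXE gene and a marker of committed oligodendrocyte precursors and neural crest, was low at 1.81, 2.54 and 1.31 FPKM in control and 1.33, 1.16 and 0.949 FPKM with Nfia, with overlapping groups (log2 difference -0.41, adjusted p = 0.12). Of 5 astrocyte markers 3 were tested, 2 were lower and none higher, read against 15.1% and 16.1% of all genes tested. The 2 were Aldh1l1, a folate enzyme gene, and Gfap. Aldh1l1 held 17.1 ± 0.887 FPKM in control and 11.8 ± 0.912 FPKM with Nfia (adjusted p = 0.00265, log2 difference -0.50). The Gfap call is less stable and is described with the SOXE list, which also counts it. Gja1, a gap junction gene, was 55.4 ± 3.99 and 58.1 ± 6.48 FPKM (adjusted p = 0.631) and made up most of the summed level of these markers, 72.5 to 78.6 FPKM in control and 67.0 to 77.3 FPKM in Nfia libraries. Aldh1l1 and Gja1 were chosen for mention after their values were seen. Of 5 oligodendrocyte lineage markers, Sox10 among them, 2 were lower and none higher, read against the same shares. Those 2, Pdgfra and Mbp, are counted again in the SOXE list. The 5 markers summed to 19.96 to 23.0 FPKM in control and 13.2 to 15.9 FPKM in Nfia libraries. Their part in the SOXE values was not tested.

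**Figure D3:**
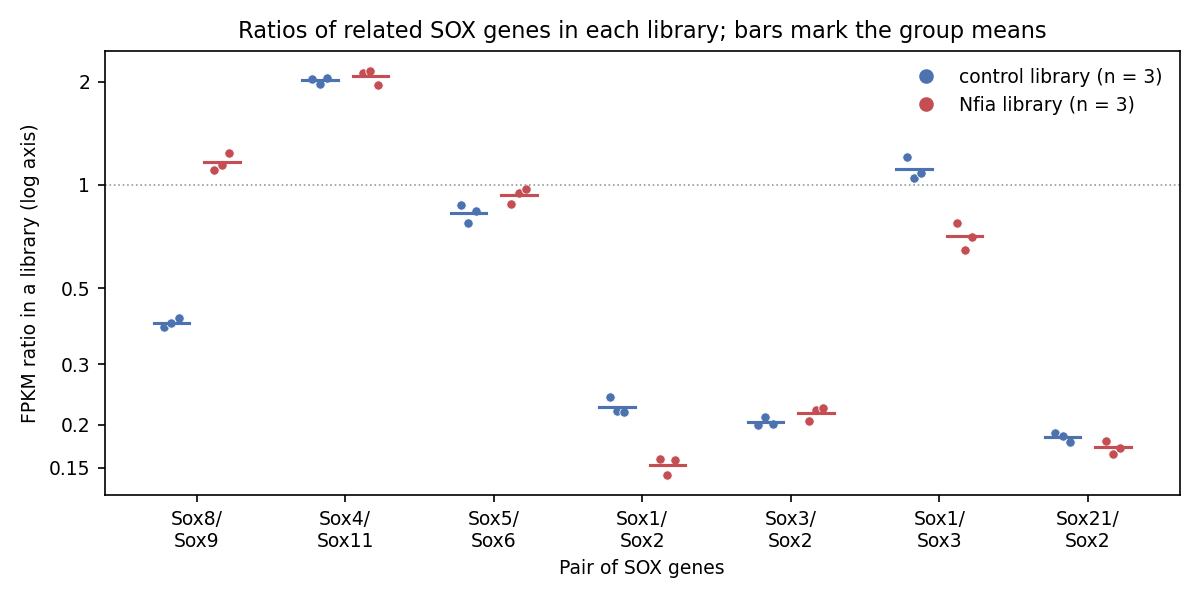
FPKM ratio of 7 pairs of related SOX genes on a log axis, with 1 point per library (control blue, Nfia red), bars at the group means and a dotted line at equal levels. Sox8 to Sox9 crosses that line upward, from 0.385 to 0.410 in control to 1.11 to 1.24 with Nfia, Sox1 to Sox3 crosses it downward, and Sox4 to Sox11 overlaps between the groups near 2.02.

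Genes that work with the SOXE factors in glia and cartilage split in direction. Of 23 on a list, 19 were tested, 8 were higher and 5 lower, read against 16.1% and 15.1% of all genes tested, with a median log2 difference of 0.10; with a filter of 5 FPKM, 3 were lower. Olig1 and Olig2, factors of ventral precursors and the oligodendrocyte lineage, rose by 1.60 and 1.45 on the log2 scale. The members that fell included later genes of that lineage, the receptor gene Pdgfra (log2 difference -0.64) and the myelin gene Mbp (-0.60). The astrocyte filament gene Gfap also fell (-0.51). It was low, near the filter of 1 FPKM, at 2.36 ± 0.267 FPKM in control and 1.37 ± 0.342 FPKM with Nfia. The Gfap call ended without any 1 of the control libraries or without Nfia 3 (adjusted p = 0.0522 to 0.0913). Apcdd1, Mmd2 and Zcchc24 have been described as joint targets of Sox9 and Nfia in the embryonic spinal cord. Here Apcdd1 held 17.2 ± 1.18 FPKM in control and 8.15 ± 0.0543 FPKM with Nfia (log2 difference -0.99, adjusted p = 0.000179), and Mmd2 fell from 16.5 ± 0.521 to 11.2 ± 0.688 FPKM (log2 difference -0.52). Zcchc24 rose from 22.7 ± 1.16 to 38.8 ± 1.08 FPKM (log2 difference 0.75). Groups of all 3 did not overlap, read against 47.7% of genes tested without overlap in either direction. The members below the filter were S100b, Col11a2, Acan and Hapln1.

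Partners and targets of the B1 factors also split, with 6 higher and 7 lower of 20 tested from a list of 21, read against the same 16.1% and 15.1%, and a median log2 difference of 0.04. Those that rose included the growth factor receptor gene Egfr (log2 difference 1.24), Notch1 (1.01) and the filament gene Nes (0.71), whose neural enhancer binds SOX and POU factors. Pax6, which binds DNA together with Sox2, fell from 17.6 ± 1.44 to 10.9 ± 0.376 FPKM. The POU partner genes were chosen for mention after their values were seen. Pou3f1 fell from 12.2 ± 1.42 to 6.47 ± 0.589 FPKM and Pou3f4 from 36.4 ± 2.69 to 26.2 ± 1.37 FPKM. Pou3f2 was 12.9 ± 0.0864 and 12.7 ± 0.378 FPKM and Pou3f3 102 ± 3.06 and 109 ± 2.19 FPKM, and neither passed (adjusted p = 0.683 and 0.116). Without control 2 or Nfia 2, 4 in place of 7 genes of the list were lower.

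**Figure D4:**
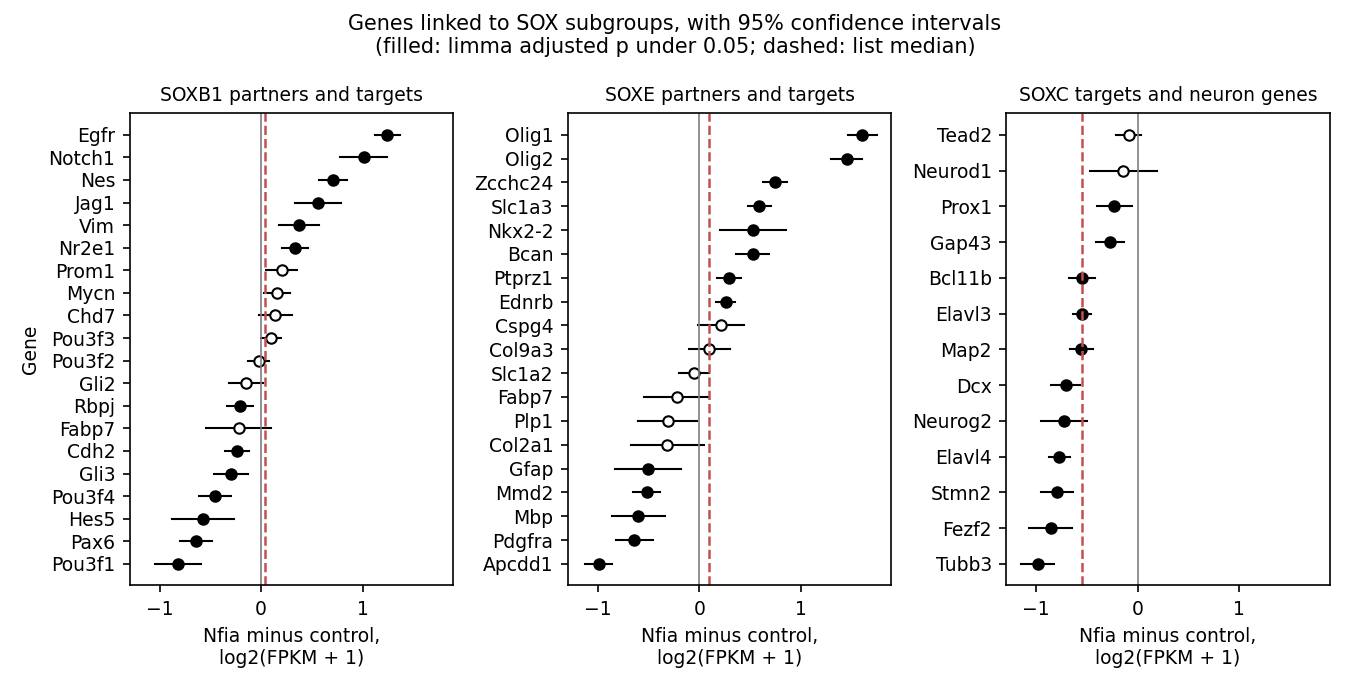
Difference between Nfia and control on the log2(FPKM + 1) scale with its 95% confidence interval for tested genes of 3 lists (not every gene is drawn) linked to the B1, E and C subgroups; filled points passed an adjusted p under 0.05 and the dashed line is the median of the whole tested list. The SOXC list sits mostly below 0 with a median of -0.55, while the other lists spread on both sides with medians of 0.04 and 0.10.

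The genes lie apart on the genome, each on its own chromosome, so none of the 10 is a neighbour of another. In GRCm38 the spans are chromosome 8 from 12395519 to 12399555 for Sox1, chromosome 3 from 34649995 to 34652461 for Sox2, chromosome 13 from 28948919 to 28953699 for Sox4, chromosome 12 from 27334268 to 27342718 for Sox11, chromosome 17 from 25565893 to 25570686 for Sox8 and chromosome 11 from 112782210 to 112787757 for Sox9. Annotated genes within 10 kb of each member were then looked up, a choice made after the data were seen, and 4 of them passed the filter. Sox1 and Sox2 each lie inside the span of a long noncoding RNA, Sox1ot and Sox2ot, and no source states how reads of overlapping models were assigned. Sox2ot held 27.1, 24.9 and 24.0 FPKM in control and 18.0, 16.4 and 15.7 FPKM with Nfia (log2 difference -0.58, adjusted p = 0.00159), while Sox2 within it was not called. Sox1ot, listed as Gm5607, held 5.14, 4.33 and 5.15 FPKM in control and 3.35, 2.84 and 2.78 FPKM with Nfia (log2 difference -0.56, adjusted p = 0.00579), a fall beside that of Sox1.

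Both tested neighbours of Sox8 rose with it, read against 16.1% of all genes tested that were called higher. Cerox1, a noncoding RNA listed as 2810468N07Rik, starts 124 bases beyond the Sox8 start and runs the other way. It held 8.06, 6.19 and 6.04 FPKM in control and 17.3, 15.2 and 14.5 FPKM with Nfia, 2.32-fold higher (log2 difference 1.11, adjusted p = 0.00101). Lmf1, a lipase maturation factor gene whose span begins 8487 bases beyond that of Sox8, held 8.13, 7.94 and 9.43 FPKM in control and 12.9, 12.4 and 15.3 FPKM with Nfia (log2 difference 0.61, adjusted p = 0.00432). No Nfia library overlapped a control library in either gene, read against 24.7% of genes tested that were higher without overlap.

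**Figure D5:**
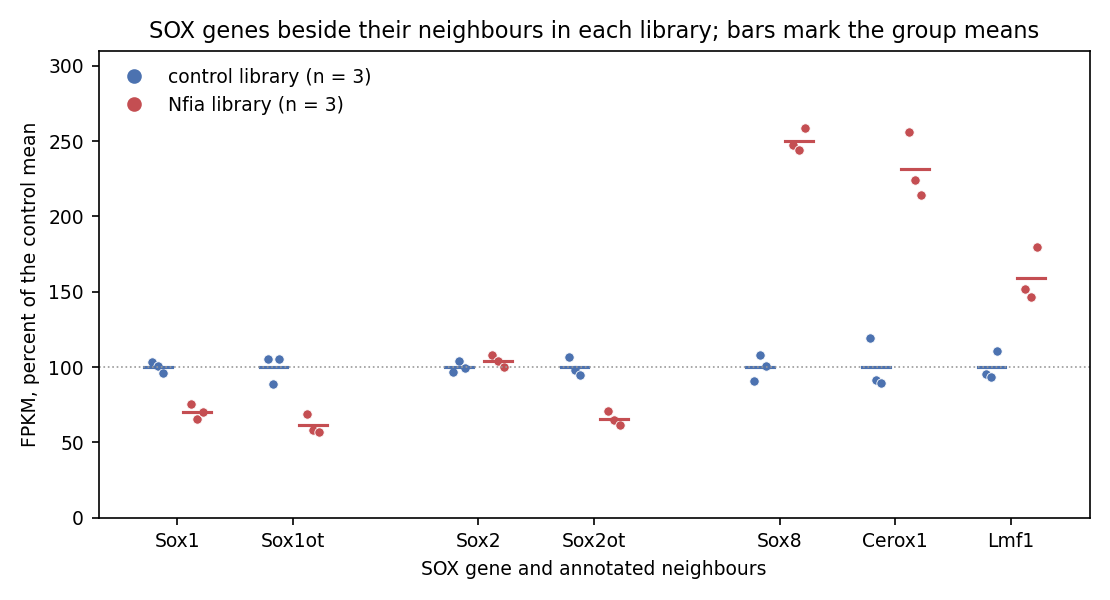
FPKM as a percent of the control mean for Sox1, Sox2 and Sox8 beside their annotated neighbours, with 1 point per library (control blue, Nfia red), bars at the group means and a dotted line at 100%. Cerox1 and Lmf1 rise with Sox8 to 232% and 159% of control, Sox1ot falls with Sox1, and Sox2ot falls to 65.8% while Sox2 stays near the line.

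The sequences before the start sites of 5 members are shown because these genes rose (Sox8), fell (Sox4, Sox11 and Sox1) or were not called (Sox2), and because nuclear factor I proteins bind the letters TTGGC, most strongly as the palindrome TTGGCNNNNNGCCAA. Each run is the 250 bases before the start, 5′ to 3′ on the strand of the gene, from RefSeq on GRCm38.p6. Capitals mark TTGGC or its reverse complement GCCAA.
Sox8, chr17:25570687-25570936, minus strand: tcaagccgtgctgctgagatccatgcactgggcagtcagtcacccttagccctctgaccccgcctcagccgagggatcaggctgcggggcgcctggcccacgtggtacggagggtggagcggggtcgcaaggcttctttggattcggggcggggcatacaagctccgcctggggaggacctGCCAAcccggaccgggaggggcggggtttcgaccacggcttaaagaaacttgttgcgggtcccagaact
Sox4, chr13:28953700-28953949, minus strand: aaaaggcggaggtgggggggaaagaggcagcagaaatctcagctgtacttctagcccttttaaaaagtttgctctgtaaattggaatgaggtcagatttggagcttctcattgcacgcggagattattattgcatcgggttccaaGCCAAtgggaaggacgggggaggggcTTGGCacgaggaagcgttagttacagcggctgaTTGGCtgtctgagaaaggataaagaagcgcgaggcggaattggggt
Sox11, chr12:27342719-27342968, minus strand: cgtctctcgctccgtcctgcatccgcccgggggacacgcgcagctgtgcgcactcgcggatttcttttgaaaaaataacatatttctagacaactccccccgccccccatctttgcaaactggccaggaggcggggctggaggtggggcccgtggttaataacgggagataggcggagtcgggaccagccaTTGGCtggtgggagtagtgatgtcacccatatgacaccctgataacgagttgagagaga
Sox1, chr8:12395269-12395518, plus strand: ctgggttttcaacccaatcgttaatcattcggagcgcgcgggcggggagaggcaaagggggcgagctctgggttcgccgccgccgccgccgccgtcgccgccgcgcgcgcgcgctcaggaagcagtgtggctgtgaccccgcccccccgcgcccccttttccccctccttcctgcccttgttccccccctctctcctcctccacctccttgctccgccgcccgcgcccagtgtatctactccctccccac
Sox2, chr3:34649745-34649994, plus strand: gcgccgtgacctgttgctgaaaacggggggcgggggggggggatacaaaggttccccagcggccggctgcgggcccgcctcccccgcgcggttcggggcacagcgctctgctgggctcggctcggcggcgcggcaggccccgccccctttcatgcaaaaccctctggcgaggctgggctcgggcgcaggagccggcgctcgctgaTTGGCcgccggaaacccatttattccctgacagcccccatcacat

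The palindrome was in none of the 13 windows of the 8 members with an entry, and in 0.0365% of 32851 windows of the same length over all genes. TTGGC on either strand was in 7 of the 13 windows and in 41.5% of all windows. Its first base lay 69 bases before the start in Sox8, 59 in Sox11, 45 in Sox2 and 105, 79 and 46 in Sox4, and the Sox1 and Sox21 windows held none. In Sox2, Sox11 and 2 of the 3 places in Sox4, these letters overlap CCAAT or its reverse complement ATTGG, the binding letters of another factor, NF-Y. The outer 126 bases of the Sox8 window lie inside the Cerox1 span. The SOX site letters ACAAAG or ACAATG, on either strand, were in 7 of the 13 windows and in 25.2% of all windows. These 7 windows were of 3 members (Sox2, Sox5 and Sox6), and most were of Sox6, the only member with several windows. Genes that rose, fell and were not called all held TTGGC among these windows, and Sox1, which fell, did not.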

How the data were processed

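Poly(A) RNA libraries were made with a directional kit, per the labels' protocols. The deposited values are FPKM, 1 per gene symbol and library; no header names the unit, which rests on the range and totals of the columns. The submitters' processing notes name TopHat, Bowtie 1, SAMtools, Cufflinks, Cuffdiff, MACS 1.4 and mm10 with no role or order; no source used here gives the annotation, filters or strand use. Values were used as deposited. The 12537 genes averaging 1 FPKM or more over the libraries were compared as log2(FPKM + 1) with limma 3.58.1 in R 4.3.3 (variance trend, 3 against 3 libraries, two-sided, Benjamini-Hochberg over all genes tested, threshold 0.05). The fit was tested on simulated data with independent noise in each library, which cannot show what a shared batch or technical replicates would do. Ratios of 7 SOX pairs were tested with exact permutation (scipy 1.17.1). No count test was run, since whole reads cannot be recovered from FPKM without the gene lengths. Gene spans and promoter windows are from RefSeq tables of GRCm38.p6, the assembly of mm10. Named are all members, Nfia, per list up to 4 genes of lowest adjusted p, genes behind a list count of 5 or fewer, and the 3 genes most like Sox8 and Sox11; some genes this rule gives are not reported here. The members and lists were chosen with earlier results of these data known.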

Additional observations from a re-analysis of the deposited data

How the results depend on the processing

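The fit was repeated under 18 alternatives (other pseudocount, filters, scalings and variance models, library weights, a replicate block, single libraries left out and, chosen after seeing the data, rescaling to TPM and leaving out both libraries of replicate 1). Sox8, Sox1, Sox4 and Sox11 kept direction and call in all 18, with log2 differences of 1.23 to 1.35, -0.55 to -0.45, -0.56 to -0.45 and -0.56 to -0.49. With library weights 2 members were higher, and 1 to 2 when a library was left out, the second being Sox3. Sox9 kept its direction in all and its call in 10. With 1 library left out, 1311 to 1724 genes were higher (1311 without Nfia 2) and 1277 to 1620 lower, and without both libraries of replicate 1 there were 1196 higher and 1094 lower. Differences that were not called changed sign for Sox2 under quantile normalization (-0.014) and for Sox5 without control 3 (-0.0054), without Nfia 3 (-0.011) and after rescaling to TPM (-0.0078). Over all settings that leave out libraries, the Sox5 difference ran from -0.011 to 0.078 and that of Gja1, also not called, from -0.015 to 0.14. The log2 ratio of Sox4 to Sox11 moved by -0.0019 under quantile normalization. The cause was not tested. In the labels, same-numbered libraries share only a number. Their deviations correlated at 0.026, -0.0058 and 0.046 over genes. Only control 3 correlated best with the library of its own number. The highest correlation, 0.080, was between control 1 and Nfia 2. Control 1 and Nfia 1 were alike in their low sums of mesenchyme and meninges markers, 4.40 and 3.27 FPKM. A shared origin of same-numbered libraries was not tested. With the replicate block 2130 genes were higher and 1916 lower, and Sox9 was not called (adjusted p = 0.0531). Absolute depth is unknown, so what it limits was not measured.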

Other observations

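The other SOX genes were mostly silent. Of 10 further SOX genes in the tables, including Sry, 7 were below the filter, with no value above 0.57 FPKM in any library. Sox12, the third SOXC gene, held 47.9, 47.0 and 48.4 FPKM in control and 43.0, 45.6 and 45.3 FPKM with Nfia. Its groups did not overlap, but unlike Sox4 and Sox11 it did not pass (log2 difference -0.10, interval -0.19 to 0.00, adjusted p = 0.116). Sox13, the third SOXD gene, held 6.76, 7.47 and 6.76 FPKM in control and 8.17, 8.33 and 8.07 FPKM with Nfia and passed (log2 difference 0.20, adjusted p = 0.0345), a call lost in 10 of 18 alternatives (adjusted p = 0.052 to 0.174).

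The genes whose profile over the 6 libraries lay closest to that of Sox8 were Sec14l2, a lipid-binding protein gene, Ets1, a transcription factor gene, and Egfr, with root mean square differences of 0.0388, 0.0442 and 0.0488 on the log2 scale. Sec14l2 went from 7.31 ± 0.349 to 19.1 ± 0.558 FPKM and Ets1 from 5.91 ± 0.455 to 16.5 ± 0.938 FPKM. Closest to Sox11, the member with the largest decrease, were genes that included Efnb1, an ephrin ligand gene, and Mpped2, with differences of 0.0232 and 0.0267. These are likenesses over 6 libraries of 2 groups and are given as a description.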
